A study of Mus musculus with 9 samples.

Results

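KDM6A chromatin immunoprecipitation intervals that lay in gene deserts of mouse embryonic stem cells are described here. A gene desert was any stretch of an autosome other than chromosome 11 at which every base was at least 500 kb from the span of every protein-coding gene of RefSeq (mm10). An interval was a member when it lay whole inside such a stretch. Of the 142062 intervals in the 5 lists, 7062 were members, and 110239 lay elsewhere on the same 18 autosomes. The rule used gene positions only, and no measured value.

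The groups were 2 KDM6A libraries of Sv129 embryonic stem cells kept in 0.12 µM MTX for 24 h and 2 control KDM6A libraries of Sv129 cells labelled WT. There was also 1 IgG immunoprecipitation of MTX cells, in which a nonspecific antibody measures background. Groups follow the sample titles, since the protocol text on MTX is attached to control samples as well. The labels enter "folate deficiency" as the genotype of the MTX samples and name no altered allele, and all cells were grown on gelatin with serum and leukemia inhibitory factor. Libraries were amplified over 30 cycles, and the labels do not say whether replicate libraries were separate cultures, so a spread between them may be technical only. The labels give the cells as 1 line, and no expression data were used to check the cell type. MTX libraries 1 and 2 had 984 and 1348 desert intervals, control libraries 1 and 2 had 2608 and 568, and the IgG library had 1554.

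KDM6A, also called UTX, removes methyl groups from lysine 27 of histone H3, the mark that Polycomb complexes write at silent developmental genes. It works inside the MLL3 and MLL4 complexes, which act at enhancers, and enhancers of developmental genes can lie far from any coding sequence. Gene deserts often flank genes of development and of neural cell adhesion. They are poor in C and G bases and hold mostly repeats, noncoding RNA genes and, at some loci, distant regulatory elements.

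The deserts made up 236 blocks and 194 Mb, which is 8.49% of the 2282 Mb between the outermost intervals of these autosomes. The median block was 496 kb long, the longest was 3.54 Mb, and 69 blocks reached 1 Mb. Genes of neural adhesion and of development were common at their borders. Of 56 cadherin, protocadherin and synaptic adhesion genes on these autosomes, 37 bordered a desert, and they made up 8.49% of the 436 border genes but 0.295% of all protein-coding genes. Among them were Pcdh7, Pcdh9, Pcdh17 and Pcdh20 (protocadherins), Cdh8 and Cdh10 (cadherins), Slitrk1 and Lrrc4c (synapse organisers). Of 78 developmental transcription factors, 20 bordered a desert, which was 4.59% of border genes against 0.411% of protein-coding genes. They included Nr2f1, Isl1, Sox2, Sox11, Zeb2 and Sall1.

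Annotated transcription starts were few in the deserts, as the rule leaves out every protein-coding gene and 500 kb around it. Starts there belong to genes not counted as protein-coding. The full set of windows takes in protein-coding genes, and also chromosomes not used here. RefSeq promoter windows (250 bases before to 50 after a start, GRCm38.p6, the build of mm10) numbered 222 in the deserts out of 32817. Their median content of G and C was 42.3%, against 52.7% over all windows, and 81.5% held a CG dinucleotide, the target of DNA methylation, against 94.6% of all windows. An interval of any library covered part of 25 desert windows (11.3%), against 17.6% of windows elsewhere on these autosomes. Intervals of the 5 lists together covered 10.9% of desert bases and 15.2% of bases elsewhere, so these shares lay near what was covered overall. The median content of G and C of the 25 windows was 38%. A pair of windows, both of predicted noncoding genes, was covered in more than 1 library, and they are shown because no other desert start was touched repeatedly. Gm41932 starts on the minus strand at chr1:113101869-113102168, in the block between Dsel and Cntnap5a, and Gm31831 on the plus strand at chr5:10334170-10334469. Capitals mark CG, which reads the same on both strands.
Gm41932: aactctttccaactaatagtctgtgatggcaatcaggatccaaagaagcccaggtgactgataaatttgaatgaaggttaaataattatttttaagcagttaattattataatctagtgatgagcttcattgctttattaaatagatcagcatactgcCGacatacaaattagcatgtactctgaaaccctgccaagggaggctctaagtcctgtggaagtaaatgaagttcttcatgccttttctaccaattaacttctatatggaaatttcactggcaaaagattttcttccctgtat
Gm31831: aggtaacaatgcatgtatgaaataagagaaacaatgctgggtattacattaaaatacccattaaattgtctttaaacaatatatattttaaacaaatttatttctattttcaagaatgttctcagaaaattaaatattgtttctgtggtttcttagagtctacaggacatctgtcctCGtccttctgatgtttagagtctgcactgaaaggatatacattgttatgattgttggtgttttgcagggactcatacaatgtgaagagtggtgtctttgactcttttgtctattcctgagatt

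Each of these windows held 1 CG, against a median of 2 over desert windows and 7 over all windows. The Gm41932 window was 35% G and C. It was covered by intervals of MTX library 1, with 146 immunoprecipitated and 101 background reads, and of control library 1, with 121 and 99 reads. The Gm31831 window was 31.7% G and C. It was covered in MTX library 2, with 154 immunoprecipitated and 112 background reads, and in the IgG library, with 154 and 84 reads.

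Of 21 miRNA genes in the deserts, 3 were overlapped by an interval (14.3%), against 14.7% of miRNA genes elsewhere on these autosomes. Mir125b-2 encodes miR-125b, a miRNA related to worm lin-4 that is abundant in neural tissue, and lies on chromosome 16. Mir7094-1 and Mir7094-2 lie on chromosome 12 among the variable segments of the immunoglobulin heavy chain. Mature sequences from RefSeq are shown with bases 2 to 8, the seed that pairs with targets, in capitals. The 3p arm is the same for both Mir7094 genes, so they share its seed, while their 5p arms carry different seeds.
miR-125b-5p: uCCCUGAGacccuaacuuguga
miR-125b-2-3p: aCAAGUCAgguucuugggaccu
miR-7094-3p: uACUCUGCuguucucuccaca
miR-7094-1-5p: uCUGAAGAggauacagggucuga
miR-7094b-2-5p: uCUGGAGAggauacagggucuga

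Mir125b-2 was covered in control library 1 alone, by an interval with 63 immunoprecipitated and 34 background reads. The interval over Mir7094-2 had 103 immunoprecipitated and 107 background reads in MTX library 1, 242 and 210 in MTX library 2, 123 and 111 in control library 1, and 160 and 105 in the IgG library. The one over Mir7094-1 had 107 and 70 reads in MTX library 2, and 226 and 203 in control library 1. At Mir7094-2 the KDM6A counts were within 1.15 times the background counts, and the IgG ratio of 1.52 was above all of them. In the authors' deposited fold, scaled by list, the gap was narrower. It was 1.03 and 1.29 in MTX libraries 1 and 2, 1.47 in control library 1 and 1.58 in IgG.

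KDM6A intervals were sparser in deserts than elsewhere in all 4 libraries, and the IgG list showed little of this. Deserts held 5.08 and 6.96 intervals per Mb in MTX libraries 1 and 2, against 9.01 and 10.5 per Mb elsewhere. In control libraries 1 and 2 they held 13.5 and 2.93 per Mb, against 17.5 and 7.39 elsewhere. The IgG list held 8.02 per Mb in deserts and 8.38 elsewhere. The log2 ratio of desert over elsewhere density averaged -0.78 ± 0.41 in KDM6A libraries (SD, n = 4, an exact two-sided sign-flip test, p = 0.125, the smallest it can give), and was -0.06 in IgG. When only the better 50% of each list by deposited p was kept, the mean shrank to -0.14 ± 0.46 (p = 0.75 by the same exact test).

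Desert intervals were as wide as others. Their median width was 3400 bp in both MTX libraries, 2800 and 3800 bp in control libraries 1 and 2, and 3800 bp in IgG. Elsewhere it was 3400 and 3600 bp in MTX libraries 1 and 2, 2800 and 3800 bp in control libraries 1 and 2, and 3800 bp in IgG. The longest desert interval of a library ran over 10400 and 10800 bp in MTX libraries 1 and 2, and 10600 and 15200 bp in control libraries 1 and 2. A pair of these, the longest of MTX library 2 and of control library 2, lay over variable segments of the immunoglobulin heavy chain on chromosome 12. The other two lay on chromosome 1, between Ddx18 and Dpp10 and between Cntnap5a and Tsn.

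Reads of the immunoprecipitation, in column 4 of the lists, were nearly as dense inside desert intervals as inside other intervals. The median was 32.9 and 33.5 reads per kb in desert intervals of MTX libraries 1 and 2, against 33.5 and 34.2 elsewhere. It was 27.7 and 33.0 reads per kb in desert intervals of control libraries 1 and 2, against 28.3 and 33.5 elsewhere. The difference was small in each library, with a mean log2 ratio of -0.03 ± 0.005 (SD, n = 4, exact sign-flip test, p = 0.125). The lists hold called intervals only, and the lowest column 4 density was also alike by place. It was 21.5 and 22.3 reads per kb in deserts of MTX libraries 1 and 2, against 21.9 and 22.2 elsewhere. In control libraries 1 and 2 it was 16.3 and 23.8, against 15.6 and 22.8. How far the calling of intervals sets column 4, and with it the ratio given below, was not tested.

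Column 5, the reads of the background library in the same intervals, was lower in deserts in every list. The median was 19.5 and 18.7 reads per kb in desert intervals of MTX libraries 1 and 2, against 24.7 and 25 elsewhere. In control libraries 1 and 2 it was 17.5 and 19.3 in desert intervals, against 23.0 and 24.2 elsewhere, and in the IgG list it was 18.9 against 23.6. The mean log2 ratio was -0.37 ± 0.05 over the KDM6A libraries (SD, n = 4, exact sign-flip test, p = 0.125) and -0.32 in IgG.

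The ratio of column 4 to column 5 was therefore higher in deserts, in IgG as well as in KDM6A libraries. Its median was 1.68 and 1.78 in desert intervals of MTX libraries 1 and 2, against 1.36 and 1.38 elsewhere. It was 1.58 and 1.67 in desert intervals of control libraries 1 and 2, against 1.24 and 1.38 elsewhere. The IgG list had 1.80 in deserts against 1.46 elsewhere. The authors' deposited fold scales this ratio by list, and its desert median was 1.81 and 1.999 in MTX libraries 1 and 2, 2.09 and 1.74 in control libraries 1 and 2, and 1.87 in IgG, so IgG lay among the KDM6A libraries. The mean log2 ratio was 0.33 ± 0.05 over KDM6A libraries (SD, n = 4, exact sign-flip test, p = 0.125) and 0.31 in IgG. MTX library 1 and the IgG library shared a background library in at least those intervals that had the same position, where 52 of 52 background counts were equal.

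**Figure D1:**
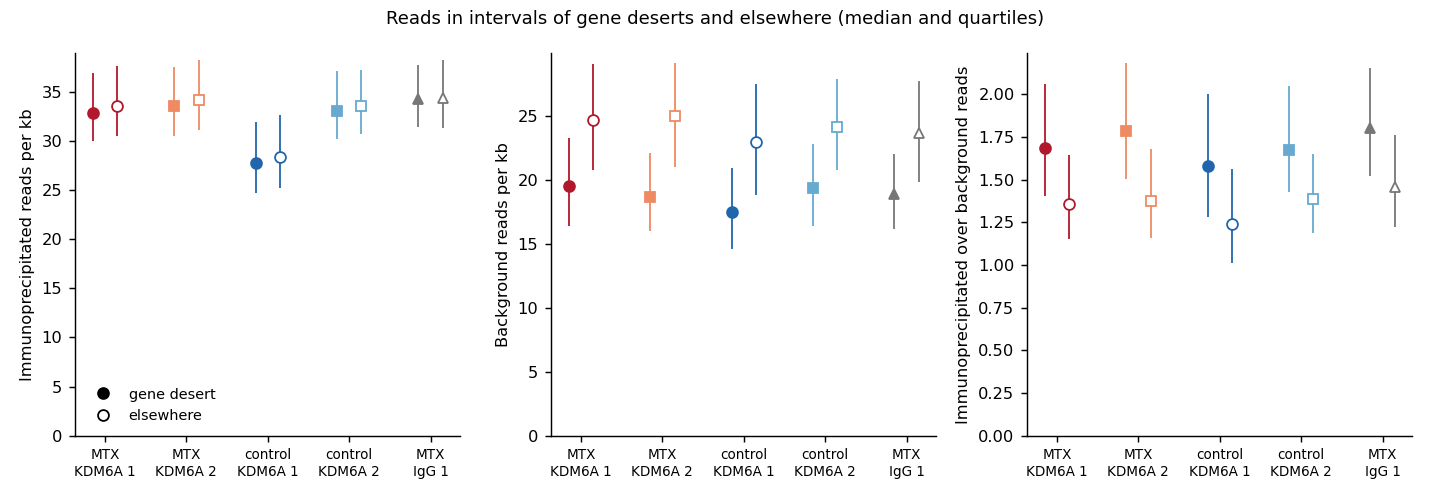
Medians (points) and quartiles (bars) over intervals of immunoprecipitated reads per kb, background reads per kb and their ratio, for each library, with desert intervals filled and intervals elsewhere open. Immunoprecipitated reads differed little by place, while the background median lay between 17.5 and 19.5 reads per kb in deserts and between 23.0 and 25 elsewhere.

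More desert intervals passed an adjusted p of 0.05 in the authors' lists, where each interval is tested against its background library. The share was 96.7% and 99.5% of desert intervals in MTX libraries 1 and 2, against 81.3% and 87.6% elsewhere. Over the whole lists it was 78.7% and 83.7%. In control libraries 1 and 2 it was 98.2% and 96.0% of desert intervals, against 86.3% and 83.9% elsewhere, and 84.9% and 78.5% of the whole lists. The IgG list had 98.6% in deserts, 85.9% elsewhere and 83.7% over the whole list. Ratios of 2 or more made up 29.2% and 35.5% of desert intervals in MTX libraries 1 and 2, against 10.5% and 12.0% elsewhere. They made up 26.2% and 29.0% in deserts of control libraries 1 and 2, against 10.7% and 9.88% elsewhere, and 34.6% against 14.4% in IgG.

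Background differed already between the classes of distance nearer to genes, and flattened within the deserts. Inside or overlapping genes, the median background was 25.6 and 26.1 reads per kb in MTX libraries 1 and 2, and at 1 Mb or more from any gene it was 20 and 18.3. The corresponding values of control libraries 1 and 2 were 24.2 and 24.8 inside genes, and 17.9 and 18.9 at 1 Mb or more. From the class of 500 kb to 1 Mb to that of 1 Mb or more it was higher again in MTX library 1 (19.2 and 20 reads per kb), control library 1 (17.5 and 17.9) and IgG (18.8 and 19), and the ratio of MTX library 1 was lower (1.70 and 1.66). Intervals 500 to 600 kb from a gene had median ratios of 1.64 and 1.74 in MTX libraries 1 and 2, against 1.65 and 1.72 at 400 to 500 kb. In control libraries 1 and 2 they had 1.55 and 1.62, against 1.53 and 1.62.

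Density did not follow the same course in all lists. In control library 2 it fell at each step beyond 100 kb, to 2.91 per Mb at 1 Mb or more, against 9.24 inside genes. Control library 1 had 22.1 per Mb inside genes and between 13.0 and 14.4 per Mb in every class outside them. The IgG list was densest inside or overlapping genes, at 10.5 per Mb. It was least dense within 50 kb of a gene, at 5.96 per Mb, and held 8.84 per Mb at 1 Mb or more.

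**Figure D2:**
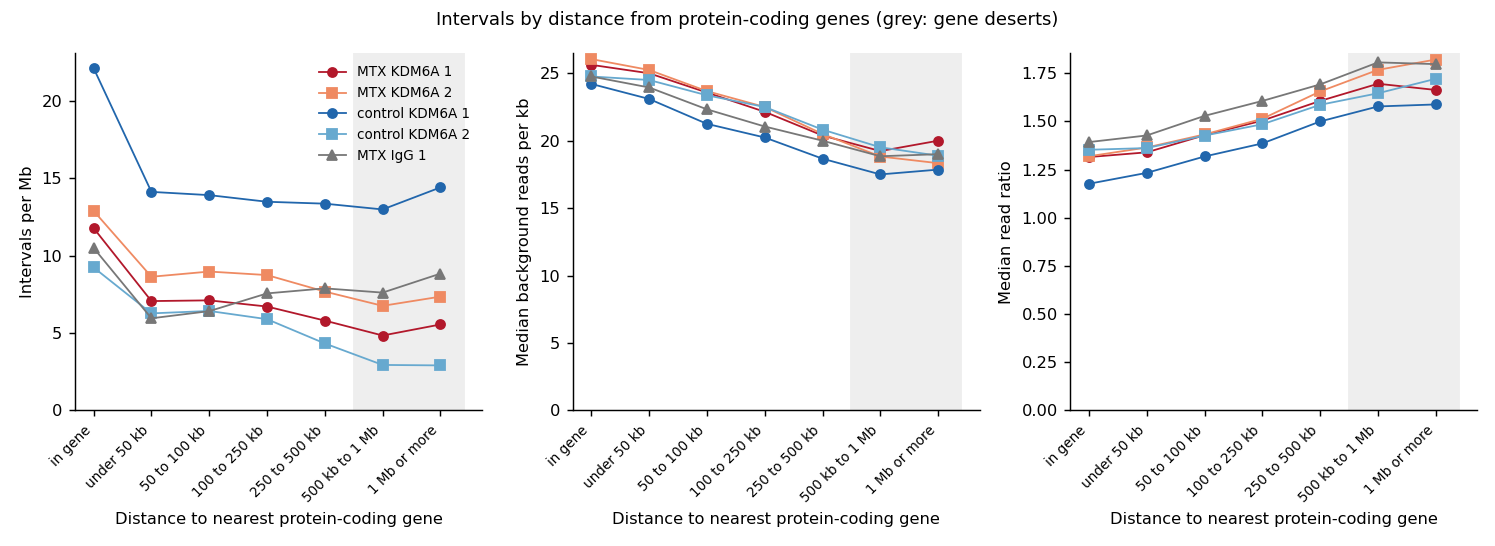
Intervals per Mb, median background reads per kb and median read ratio (vertical axes) in 7 classes of distance from the nearest protein-coding gene (horizontal axis), with 1 line per library and the desert classes shaded grey. Background was lower and the ratio higher in both desert classes than inside genes in all 5 lists, while density fell most, in proportion, in control library 2.

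Desert intervals were unevenly spread, and the blocks where they were dense were largely the same in every list. Across the 69 blocks of at least 1 Mb, Spearman correlations of density between KDM6A libraries lay between 0.70 and 0.78, and those with the IgG list between 0.75 and 0.84. These are descriptions over blocks, which share mappability, base composition and copy number across libraries. No block of that size lacked a KDM6A interval.

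The densest of these blocks lay between Dsel, which encodes a dermatan sulfate epimerase-like protein, and Cntnap5a, a neural contactin-associated protein, at chr1:112365052-115184737. It held 35.1 and 25.5 intervals per Mb in MTX libraries 1 and 2, 52.8 and 18.4 in control libraries 1 and 2, and 42.2 in IgG. Each of these was between 3.67 and 6.91 times the same library's density over all deserts. Background in its intervals was 21.8 to 23.3 reads per kb in the KDM6A libraries, above their desert medians.

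Next came the block between Adam6a and Zfp386 at chr12:114046414-115547714, which is the immunoglobulin heavy chain locus and carries 115 antigen receptor segments. Variable segments have their own class in the annotation and are not counted as protein-coding, so such loci fall under the rule. It held 28.0 intervals per Mb in each MTX library, 32.0 and 21.3 in control libraries 1 and 2, and 22.6 in IgG. Its intervals stood apart from other desert intervals in background, with 33.1 and 28.5 reads per kb in MTX libraries 1 and 2, and 28.3 and 33.5 in control libraries 1 and 2. Median ratios there were low, at 1.28 and 1.33 in MTX libraries 1 and 2 and 1.14 and 1.30 in control libraries 1 and 2. In the T cell receptor alpha block before Dad1 on chromosome 14, 0.694 Mb long with 72 segments, there were 0 intervals in all 5 lists.

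Among the other dense blocks, that between Nr2f1, a nuclear receptor of forebrain patterning, and Arrdc3 on chromosome 13 held 12.5 and 17.8 intervals per Mb in MTX libraries 1 and 2, 30.9 and 8.90 in control libraries 1 and 2, and 20.2 in IgG. The block between the protocadherin genes Pcdh20 and Pcdh9 on chromosome 14, also the longest of all, held 17.5 and 14.7 per Mb in MTX libraries 1 and 2, 30.2 and 5.93 in control libraries 1 and 2, and 27.9 in IgG. The remaining 4 lay between Kcnt2 (a potassium channel) and Cdc73 (a transcription elongation factor), Pcdh7 and G6pd2, Tenm3 (a teneurin) and Aga (a lysosomal enzyme), and Hace1 (a ubiquitin ligase) and Grik2 (a kainate receptor subunit), at 1.66 to 1.98 times the mean desert density over the KDM6A libraries. In the IgG list all 8 dense blocks were also above its own desert mean, by 1.62 to 5.26 times. Blocks with an adhesion gene at a border had a median relative density of 0.742 (30 blocks of at least 1 Mb), against 0.596 in the other 39, given as a description.

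The other 2 of the 3 longest blocks were not among the dense ones. The second longest block, between Celf4 (an RNA-binding protein) and Pik3c3 (a lipid kinase) on chromosome 18, spans 3.51 Mb and held 3 and 5 intervals in MTX libraries 1 and 2, 15 and 0 in control libraries 1 and 2, and 4 in IgG. The third, between Olfm4 and Pcdh17 on chromosome 14, held 12 and 29 in MTX libraries 1 and 2, 34 and 10 in control libraries 1 and 2, and 23 in IgG. Deserts of chromosome 18 as a whole held 0.629 and 1.05 intervals per Mb in MTX libraries 1 and 2, 5.77 and 0.315 in control libraries 1 and 2, and 1.68 in IgG. On chromosome 1 the same values were 11.1 and 10.7 in MTX libraries, 21.8 and 5.65 in control libraries, and 15.2 in IgG.

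**Figure D3:**
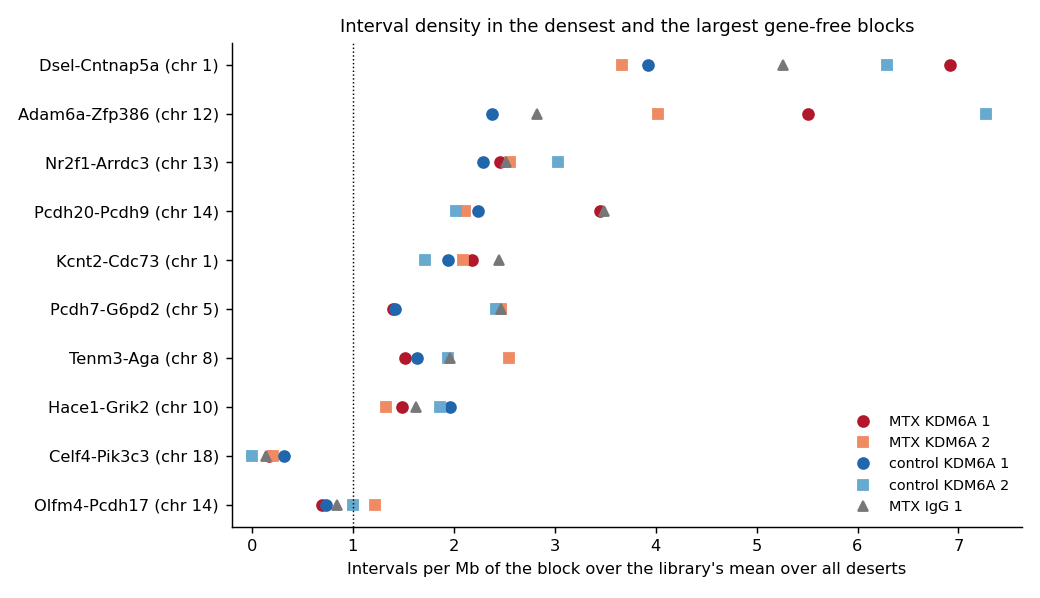
Intervals per Mb in a desert block divided by the same library's mean over all deserts (horizontal axis; the dotted line is 1) for the 8 densest blocks of at least 1 Mb and the other 2 of the 3 longest, with 1 symbol per library. The blocks beside Cntnap5a and at the immunoglobulin heavy chain locus lay furthest right, and IgG (grey triangles) lay among the KDM6A libraries in most blocks.

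A single stretch dominated the summed reads. In every list, 1 to 3 intervals within chr2:98661601-98669600, in the block between Lrrc4c and Iftap, held 49.1% and 49.4% of all desert immunoprecipitated reads in MTX libraries 1 and 2, 29.1% and 67.2% in control libraries 1 and 2, and 37.1% in IgG. Its raw immunoprecipitated over background ratio was 1.12 and 1.20 in MTX libraries 1 and 2, 0.987 and 1.10 in control libraries 1 and 2, and 1.27 in IgG. The deposited fold of its intervals was 1.20 in MTX library 1 and 1.34 in MTX library 2. It was 1.28 to 1.32 in control library 1, 1.12 to 1.22 in control library 2 and 1.13 to 1.44 in IgG. The stretch is known as one that collects excess reads in mm10 alignments of many assays. No other desert interval of any list exceeded 135 immunoprecipitated reads per kb, so medians over intervals are used here. Summed reads gave a log2 ratio of desert over elsewhere column 4 density of 0.94 ± 0.45 with the stretch and -0.07 ± 0.009 without it (SD, n = 4).

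Desert intervals recurred less often in other KDM6A libraries than intervals elsewhere did. Of desert intervals, 35.1% and 29.7% in MTX libraries 1 and 2 overlapped an interval of another KDM6A library, against 45.9% and 43.9% elsewhere. In control libraries 1 and 2 the shares were 19.1% and 40.0% in deserts, against 32.4% and 49.7% elsewhere. The mean difference was -12.0 ± 2.06 percentage points (SD, n = 4, lower in 4 of 4, exact sign-flip test, p = 0.125). In IgG, 40.3% of desert intervals overlapped a KDM6A interval, against 55.5% elsewhere, a difference of -15.1 points. Density was also lower in deserts, and its part in this was not tested. In the better 50% of each list the difference was -0.93 ± 3.36 points (exact p = 0.75), and without the 3 blocks with most regions of all 4 libraries it was -19.3 ± 0.953 points (exact p = 0.125).

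Overlap with IgG did not differ in 1 direction by place over the 4 libraries. It was 21.5% and 16.5% of desert intervals in MTX libraries 1 and 2, against 20.7% and 19.1% elsewhere, and 14.1% and 22.2% in control libraries 1 and 2, against 15.6% and 20.7% elsewhere. The mean difference was -0.40 ± 1.92 points (SD, n = 4, exact sign-flip test, p = 0.75). It was -5.81 ± 1.06 points without the 3 blocks that held most regions of all 4 libraries, and -2.29 ± 1.44 points without the antigen receptor blocks (exact p = 0.125 each), alternatives chosen after seeing the data.

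Merging the touching intervals of the 4 KDM6A libraries gave 4605 desert regions. Of these, 3999 came from 1 library (86.8%, against 78.2% of regions elsewhere), 474 from 2, 88 from 3 and 44 from all 4. The last class made up 0.955% of desert regions (95% exact interval 0.695 to 1.28%) and 1.62% of regions elsewhere (1.53 to 1.72%), where the intervals cover counting error only. An IgG interval overlapped 11.4% of desert regions from 1 library and 79.5% of those from all 4, against 10.2% and 72.9% elsewhere. Regions grew wider with the number of libraries merged, from a median of 3000 bp for 1 library to 9700 bp for all 4, and the part of width in the IgG overlap was not tested.

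The 44 regions of all 4 libraries lay in 11 blocks, and 3 blocks held most of them. The immunoglobulin heavy chain block had 14, the block between Ddx18 (an RNA helicase) and Dpp10 (a potassium channel accessory protein) had 10, and the Dsel to Cntnap5a block had 9. Without those 3 blocks, named after their values were seen, 11 regions were left. The Ddx18 to Dpp10 block, at chr1:122067980-122832138, was 0.764 Mb long and held 51 and 40 intervals in MTX libraries 1 and 2, 52 and 22 in control libraries 1 and 2, and 44 in IgG.

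**Figure D4:**
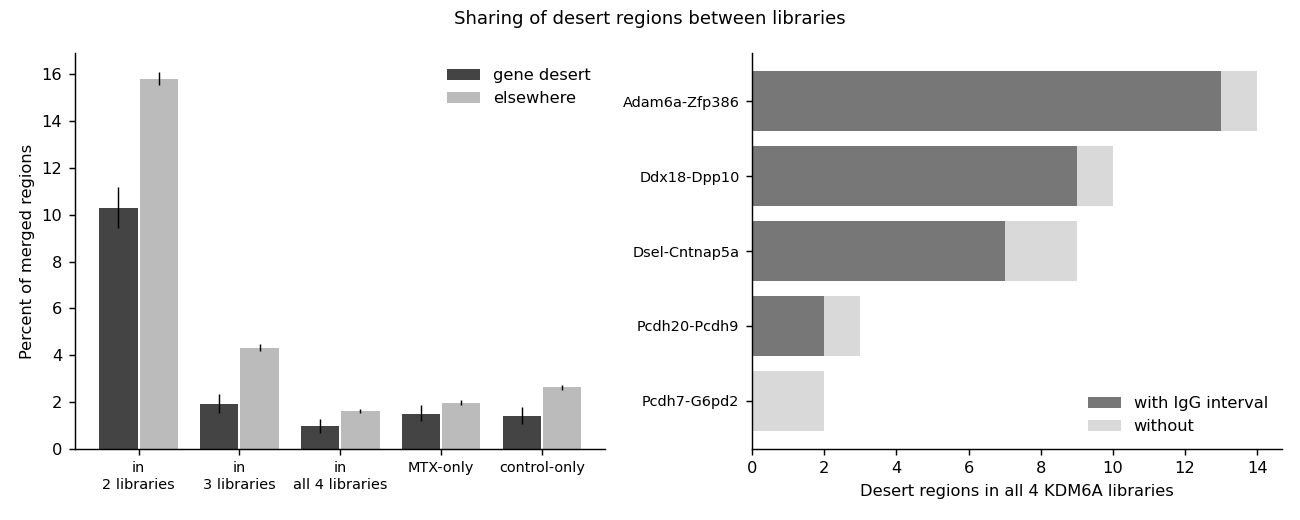
Left: percent of merged KDM6A regions by the libraries that held them, in deserts (dark) and elsewhere (light), with 95% exact binomial intervals as lines. Right: number of desert regions in all 4 KDM6A libraries in each block with at least 2 of them, with those that overlapped an IgG interval in dark grey; over all blocks 35 of the 44 did.

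Among the 44, the 8 with the highest read ratio in their lowest library reached 1.24 to 1.60 there. The top one, at chr1:113263001-113270600 in the Dsel to Cntnap5a block, had 102 immunoprecipitated over 47 background reads in MTX library 1 and 106 over 51 in MTX library 2. It had 85 over 53 in control library 1, 194 over 121 in control library 2, and 194 over 132 in IgG. All 4 KDM6A ratios, 1.60 to 2.17, were above the IgG ratio of 1.47, at a region picked for high KDM6A ratios. At chr1:122594001-122602400 they were also above IgG, 1.55 or more against 1.40. The lowest KDM6A ratio was below IgG at chr1:113806801-113815200 (1.33 against 1.43) and at chr14:90783401-90794400 (1.32 against 1.64). At chr14:92302001-92319600 all 4 raw ratios were below IgG, 1.24 to 1.62 against 1.87. The highest, 1.62, was that of control library 1. The deposited fold scales that list by 1.32 and the IgG list by 1.04, and with these constants control library 1 lies above IgG there. Of the 8, 3 overlapped no IgG interval. At chr5:60365201-60373600, between Pcdh7 and G6pd2, the ratio was 1.97 and 1.33 in MTX libraries 1 and 2, and 1.34 and 2.02 in control libraries 1 and 2. At chr5:59881601-59893400, in the same block, it was 1.77 and 1.37 in MTX libraries and 1.32 and 1.71 in control libraries. At chr1:122371601-122383000, in the Ddx18 to Dpp10 block, it was 1.39 and 2.39 in MTX libraries and 1.73 and 1.40 in control libraries. At these 3 places the ratios of MTX and control libraries overlapped.

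MTX-only regions (both MTX libraries, no control library) numbered 69 in deserts, of which 18 overlapped IgG. Control-only regions, the converse, numbered 64, of which 17 overlapped IgG. They made up 1.498% and 1.39% of desert regions, against 1.96% and 2.62% of regions elsewhere. Pairs of libraries from opposite conditions gave counts on both sides of these. MTX library 2 and control library 1 alone had 163 desert regions in common, and MTX library 1 and control library 1 alone had 111. The pairs of MTX library 1 and of MTX library 2 with control library 2 alone had 30 and 37.

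The 4 MTX-only regions with the highest ratio in their lower library and no IgG overlap follow. At chr9:17678201-17681400, between Fat3 (an atypical cadherin, 1176 kb away) and Chordc1 (611 kb away), there were 85 immunoprecipitated over 22 background reads in MTX library 1 and 105 over 34 in MTX library 2. The others, at chr1:141364801-141369600 between Kcnt2 and Cdc73, chr3:48643601-48646400 between Pabpc4l and Pcdh18 and chr14:91354601-91359000 between Pcdh20 and Pcdh9, had ratios of 1.98 to 2.96 in the MTX libraries. The control-only region that ranked first was chr2:99957801-99960200, between Lrrc4c and Iftap, with 64 over 21 reads in control library 1 and 70 over 18 in control library 2. The others lay at chr10:47011001-47016000 between Hace1 and Grik2, over the long noncoding RNA gene Gm35552, at chr14:106973201-106978600 between Trim52 and Slitrk1 and at chr1:148139201-148145000 between Brinp3 and Pla2g4a, with ratios of 1.92 to 2.82. Absence from a list means that no interval was listed there, and reads of the other libraries at these places were not analysed here.

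Single desert intervals with the highest ratios, among those with at least 20 background reads, are given next. In MTX library 1 the first was chr13:115686201-115688000, 584 kb from Itga1 (an integrin) and 610 kb from Isl1 (a motor neuron and cardiac progenitor factor), with 79 over 20 reads. MTX library 2 had chr15:46242001-46246000, 1126 kb from Kcnv1 and 1335 kb from Csmd3, with 142 over 34. In control library 1 it was chr15:19774801-19776800, between Cdh10 and Cdh12, with 79 over 20, and in control library 2 chr16:47475201-47478000, 977 kb from Nectin3 and 806 kb from Dppa4 (a gene of pluripotent cells), with 109 over 25. None of these 4 overlapped an interval of another list. Of the 3 highest per library, 12 in all, 1 did: the MTX library 1 interval between Fat3 and Chordc1, which MTX library 2 shared.

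No difference between MTX and control cells in desert intervals was detectable with these libraries. The log2 ratio of desert over elsewhere density averaged -0.71 ± 0.17 in MTX and -0.86 ± 0.67 in control libraries (SD, n = 2 each), a difference of 0.15 that was below the SD of the control libraries (exact permutation test, p = 1). For column 5 reads per kb it averaged -0.38 ± 0.06 in MTX and -0.36 ± 0.05 in control libraries (exact permutation test, p = 0.667). For the read ratio it averaged 0.34 ± 0.05 in MTX and 0.31 ± 0.06 in control libraries (exact permutation test, p = 0.667). With 2 against 2 libraries these two-sided exact tests cannot give a p below 0.333.

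Reads at the 44 desert regions of all 4 libraries were also compared between conditions, in an edgeR quasi-likelihood fit over all 2132 regions of that class in the genome. At an adjusted p of 0.05 it called 0 of the 44, and 0% of all regions in either direction. At an unadjusted p of 0.05, 4 of the 44 and 73 of the 2132 passed. DESeq2 called 0 of the 44 and 16 of all regions, and limma called 0. The 4 were seen only after the fit: 3 in the Ddx18 to Dpp10 block with more reads in MTX and 1 beside Cntnap5a with fewer. At chr1:122467401-122476800 there were 134 and 159 reads in MTX libraries 1 and 2 and 62 and 66 in control libraries 1 and 2, so the groups did not overlap in these counts. The log2 fold change was 0.99 (edgeR unadjusted p = 0.0213, adjusted p = 0.998), and the region has an IgG interval. Background reads there were 73 and 154 in MTX libraries and 38 and 28 in control libraries. The raw read ratios, 1.84 and 1.03 in MTX and 1.63 and 2.36 in control libraries, overlapped. The deposited fold scales each list by a constant, 1.07 and 1.12 in MTX libraries 1 and 2 and 1.32 and 1.04 in control libraries 1 and 2. Scaled by these constants, the ratios of the groups did not overlap and were lower in MTX. This difference was not tested. At chr1:117153001-117164200 there were 96 and 163 reads in MTX libraries and 293 and 256 in control libraries, a log2 fold change of -1.34 (edgeR adjusted p = 0.998). Background differed in the same direction, with 82 and 130 reads in MTX libraries and 232 and 254 in control libraries. The read ratios, 1.17 and 1.25 in MTX and 1.26 and 1.01 in control libraries, overlapped. Reads are those within each library's own intervals, so they also move with how wide the intervals were called. In simulated counts for the 2132 regions, the edgeR fit called 6 of 100 with an absolute log2 change of 1. It called 46 of 100 with a change of 2, so the lack of calls does not show a lack of change.

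Shares of noncoding genes differed by class, given as a description. Long noncoding RNA genes covered 5.37% of desert bases. They covered 5.01% and 6.41% of the bases of desert intervals in MTX libraries 1 and 2, 5.44% and 4.03% in control libraries 1 and 2, and 5.83% in IgG. Pseudogenes covered 0.863% of desert bases, and 0.781% and 0.618% of interval bases in MTX libraries 1 and 2, 0.607% and 0.490% in control libraries 1 and 2, and 0.541% in IgG, lower in all 5 lists. Variable segments of antigen receptors covered 0.050% of desert bases, and 0.123% and 0.117% of interval bases in MTX libraries 1 and 2, 0.080% and 0.161% in control libraries 1 and 2, and 0.039% in IgG. The 4 KDM6A shares were above that of the deserts and the IgG share was below it. These shares rest on few intervals, 13 and 16 in MTX libraries 1 and 2, 16 and 12 in control libraries 1 and 2, and 8 in IgG. In the heavy chain block the IgG density was itself 2.82 times the IgG mean over deserts. A difference between KDM6A and IgG at variable segments was not tested.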

How the data were processed

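Interval lists of 4 KDM6A libraries and 1 IgG library were used; the 4 input samples were not used here. The submitters' processing notes name Bowtie2 and the build mm10, and no version. Which program called intervals was not given in the sources used here. A list holds 8 columns on a 200 bp grid. The deposited counts are whole immunoprecipitated reads (column 4) and background reads (column 5) per interval, not normalized. The deposited p-value and adjusted p-value come from the authors, and the deposited fold is the count ratio times 1 constant per list, between 1.04 and 1.32. Lists were called per library, and they give no total depth: reads within intervals numbered 3251202 to 4192029.

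Genes came from RefSeq (GRCm38.p6): 21787 protein-coding genes on the main chromosomes, after 113 on scaffolds were left out. Overlap means at least 1 bp. Values per library were compared by place with exact sign-flip tests and between conditions with exact permutation tests, both two-sided. A background of 0 was set to 0.25 in ratios. Regions of all 4 libraries were tested with edgeR 4.0.16 (quasi-likelihood, Benjamini-Hochberg adjustment) in R 4.3.3, with DESeq2 1.42.0 and limma 3.58.1 as alternatives, and steps were tested on simulated data. Binomial intervals are exact (Clopper-Pearson, 95%). Reads without molecular identifiers are not independent molecules.

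The members, gene lists and tests were chosen with earlier results of these data known. The regions named are the 8 of all 4 libraries and the 4 per single condition (without IgG overlap) with the highest ratio in their lowest library. Blocks named are the 8 densest of at least 1 Mb and the 3 longest. Intervals named are the widest per library and those with the highest ratio at 20 or more background reads. Any other was named after its values were seen. Some items that these rules take in are not reported here.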

Additional observations from a re-analysis of the deposited data

How the results depend on the processing

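The lower density, lower background, higher ratio and lower sharing in deserts were compared as means over KDM6A libraries. These means kept their direction under every alternative run for medians, counts and shares. In the better 50% of each list the means for density (-0.14 ± 0.46) and sharing (-0.93 ± 3.36 points) were smaller than their SD (exact sign-flip test, p = 0.75 each). The exception, for background with summed reads, is given next. Summed reads in place of medians gave log2 ratios of 0.94 for column 4 and 0.89 for column 5, set by the chromosome 2 stretch, without which they were -0.07 and -0.41. In the better 50% of each list, width had a log2 ratio of 0.0486. The sharing difference was -22.9 points with every gene. That setting left 12 blocks and 2.33 Mb, with 9 and 16 desert intervals in MTX libraries 1 and 2. Control libraries 1 and 2 had 29 and 6, so its values rest on few intervals. The IgG overlap difference, near 0 in the report, was 2.35 points at 1 Mb, 2.10 with adjusted p under 0.05, 2.80 in the better 50%, -1.40 at 250 kb, -9.27 with every gene, -2.29 without antigen receptor blocks, -5.81 without the 3 richest blocks and between -1.05 and 0.304 leaving out 1 library. Regions of all 4, MTX-only and control-only libraries numbered 78, 145 and 151 at 250 kb, 18, 24 and 23 at 1 Mb, and 0, 1 and 1 when every annotated gene counted. Regions of all 4 numbered 12 in the better 50%, 10 without IgG-overlapping intervals, 29 without antigen receptor blocks and 11 without the 3 richest blocks. Leaving out each library in turn gave 48 to 87 regions of all remaining libraries, 81 to 2168 control-only and 77 to 1020 MTX-only, where 1 library then stands for a condition. Leaving out the antigen receptor blocks, the 3 richest blocks or the stretch was chosen after seeing the data.

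Differences between MTX and control libraries changed sign between alternatives, and that of density also varied widely in size. For column 4 reads per kb they were 0.00222 at 250 kb, 0.000609 in the better 50%, 0.00611 without the 3 richest blocks and between -0.00826 and 0.00243 leaving out 1 library. For width they were 0.0187 at 1 Mb, 0.235 with every gene and 0.0390 with adjusted p under 0.05. With every gene they were 0.0990 for column 5 and -0.262 for the read ratio. The values with every gene rest on 6 to 29 desert intervals per KDM6A library. Leaving out 1 library gave -0.33 to 0.62 for density, -0.0611 to 0.0188 for column 5 and -0.0110 to 0.0700 for the ratio. The cause was not tested. With the replicate number as a block, edgeR still called 0 desert regions, the differences were the same by construction (density 0.15, ratio 0.03), and exact p was 1. Same-numbered libraries did not deviate together over 2132 regions (r = 0.0045), so the numbers were not taken to pair them.

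The lists hold no reads outside intervals, so depth outside intervals is unknown.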
